A study of Homo sapiens with 6 samples.

Results

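The p53 pathway was followed through 32 of its genes in A549 cells, a human lung adenocarcinoma line that carries wild-type p53, after knockdown of the long noncoding RNA SNHG17. The genes were chosen by name, as well-known direct targets of p53 and as its feedback regulators, with earlier results of these data known, so their counts are a description and not independent evidence of a direction. All 32 had a row among the 54261 genes of the deposited count table, and 30 had enough reads to be tested. Each of 3 si-SNHG17 libraries came from A549 cells given an siRNA against SNHG17, and each of 3 si-NC libraries from A549 cells given a control siRNA. The sources used here do not state the siRNA sequences, their dose or the time of harvest. The labels call the libraries repeats and do not mention separate cultures, so the spread behind each p-value is that of these libraries and may be technical only.

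p53 is a transcription factor that is held at a low level by MDM2, an E3 ubiquitin ligase, and that accumulates after DNA damage, nucleolar stress and other insults. It then binds paired 10-base half-sites and activates genes that stop the cell cycle, repair DNA, adjust metabolism or promote death, together with genes that switch p53 off again. Many cell cycle genes fall after p53 activation by an indirect route, in which p21, the product of CDKN1A, inhibits cyclin-dependent kinases and so lets the DREAM repressor complex assemble.

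The knockdown was seen in every treated library. SNHG17 had 7.80, 8.37 and 11.3 CPM (counts per 1000000, with library sizes scaled by TMM) against 38.6, 36.1 and 51.3 CPM in si-NC, which left 21.8% of the control mean (log2 fold change -2.21, standard error 0.167, adjusted p = 2.84e-07 by edgeR's quasi-likelihood test). Library totals ran from 8643076 to 12477214 counts. The share of counts in mitochondrially encoded genes was 4.35% ± 0.187 after knockdown and 7.81% ± 0.469 in the controls (SD, n = 3). With their rows removed, 22 p53 pathway genes passed the threshold, as many as with them. The epithelial keratins KRT8 and KRT18 averaged 4245 and 4343 CPM in si-NC and were lower in si-SNHG17, at 2523 and 2273 CPM (log2 fold changes -0.75 and -0.93). Other keratins rose, KRT7 from 4075 to 4930 CPM with overlap between groups (0.27), and KRT19 from 85.8 to 116 CPM (0.43). EPCAM was near the floor, at 1.53 CPM in si-NC and 0.948 CPM in si-SNHG17. Of 10 markers of cultured lung epithelium 5 fell (50%) and 2 rose (20%), against 19.6% in each direction over all genes tested. Their summed level was 14485 to 14821 CPM in si-SNHG17 and 21975 to 24362 CPM in si-NC. PTPRC, which marks leukocytes, and COL1A2, which marks fibroblasts, had no read in any library. Of 13 immune markers 7 were at 0 in all libraries, and their summed level was 498 to 596 CPM in si-SNHG17 and 212 to 297 CPM in si-NC. Most of that sum was CD68, a lysosomal protein of macrophages and many other cells, at 510 and 197 CPM. CD14 (19.6 and 36.0 CPM) and ITGAM (9.37 and 6.62 CPM) also had reads in every library. Of 13 stromal and endothelial markers 2 were at 0 in all libraries, and the sum was 68.2 to 80.1 CPM and 76.3 to 92.0 CPM. COL1A1 (25.2 and 24.2 CPM), ACTA2 (30.9 and 34.4 CPM) and THY1 (15.5 and 21.8 CPM) had reads in every library. Whether these shifts have a part in the results below was not tested.

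Most p53 pathway genes were higher after SNHG17 knockdown. Of the 30 tested, 20 rose, 2 fell and 8 did not pass an adjusted p of 0.05, against a background in which 39.2% of all 15614 genes tested passed, 19.6% higher and 19.6% lower. Their median log2 fold change was 0.55, beside 0.01 over all genes tested. The 19.6% in each direction is also the background for the counts by role and by list below. The groups did not overlap, with si-SNHG17 higher, for 22 of the 30, against 25.1% of all genes tested, and with si-SNHG17 lower for 3, against 24.3%. The changes were moderate in size. Of the 20 genes that rose, 3 at least doubled their mean CPM (PLK3, SESN1 and GDF15), 12 rose by 1.5 to 2 times and 5 by less. Leaving out each library in turn gave 17 to 20 rises. These are bulk libraries, in which a change per cell and a change in the share of cells that express a gene cannot be told apart.

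**Figure D1:**
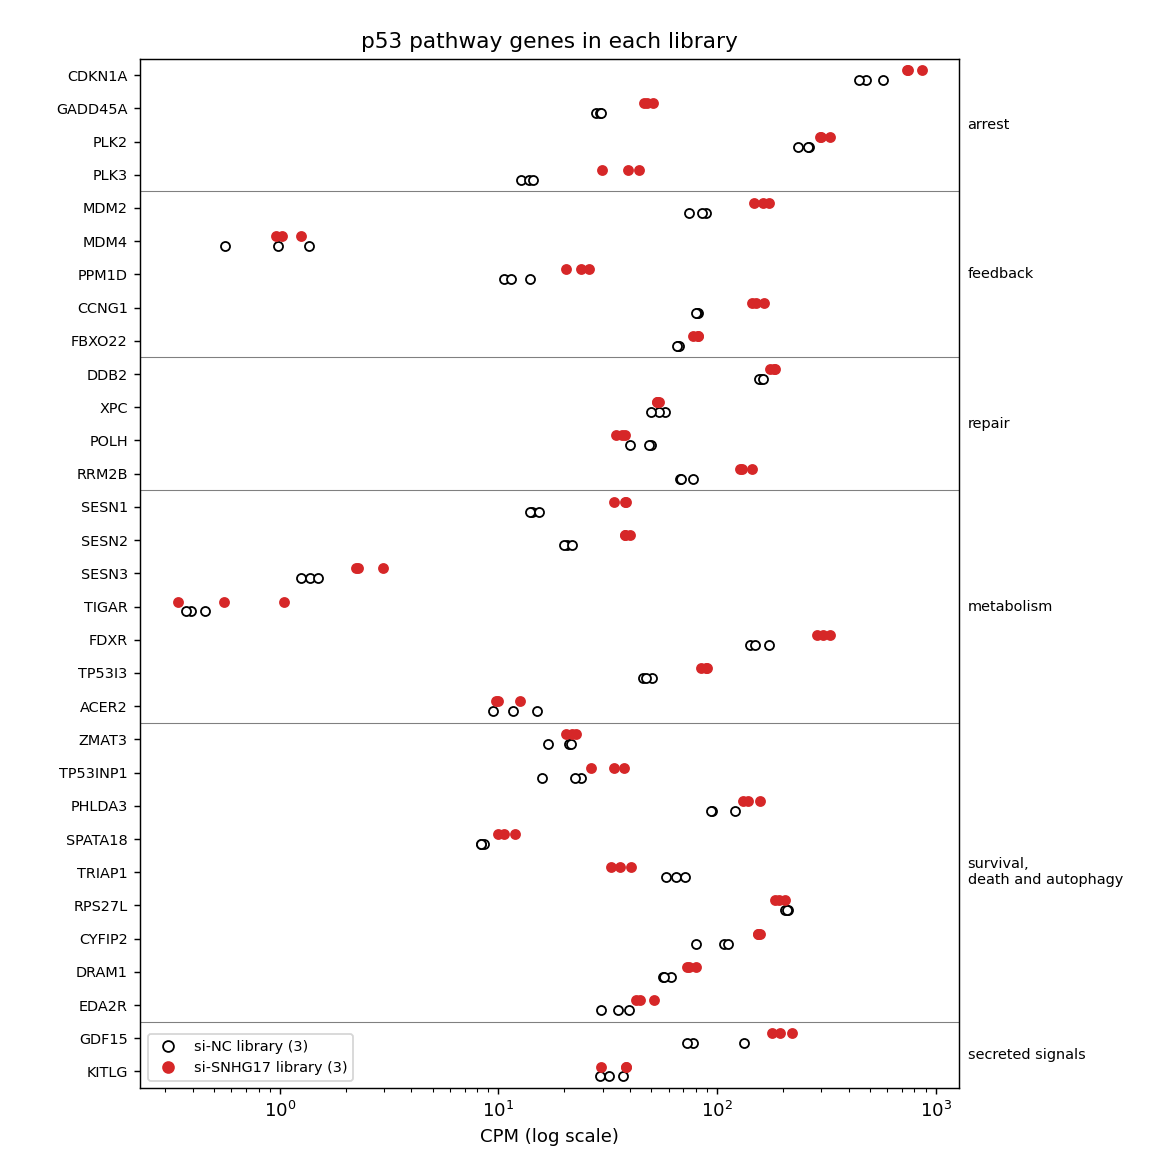
CPM (log scale) of each p53 pathway gene in each library, grouped by role; open circles are the 3 si-NC libraries and filled circles the 3 si-SNHG17 libraries. AEN, at 0 in every library, is left out, and the groups stand apart for 25 of the 30 genes tested.

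The promoters of the p53 pathway genes were searched for the sequence that p53 binds. Of the 32 genes, 27 had a promoter in the RefSeq table (GRCh38.p14), a window of 250 bases before to 50 after a transcription start. PHLDA3, FBXO22, GADD45A, TP53INP1 and RRM2B had none there. The search asked for 2 adjoining p53 half-sites, each with its 4-base core intact (CNNG, with A or T at each N), and at most 3 mismatches to the p53 consensus in 20 bases. The consensus reads the same on both strands, so both were covered, and the half-sites did not overlap. A match was present for 4 of the 27 genes, SESN1, RPS27L, AEN and GDF15, and for 0.524% of the 27305 genes in the table (0.427% of 35116 promoters). Because the members were chosen as known p53 targets, a higher share among them came with the choice. It does not bear on why they moved. The matches are shown with the cores in capitals, in the direction of the gene, because they are the part of these promoters that resembles the p53 consensus.
SESN1: ggaCAAGtctccaCAAGtca
RPS27L: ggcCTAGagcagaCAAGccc
AEN: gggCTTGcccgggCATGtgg
GDF15: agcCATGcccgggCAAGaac
The SESN1 match lies at chr6:109009018-109009037 on the minus strand, 49 to 30 bases before a RefSeq start and within an intron of the GENCODE 29 gene. The RPS27L match (chr15:63157527-63157546, minus strand, 69 to 50 bases before the start) and the AEN match (chr15:88621306-88621325, plus strand, 34 to 15 bases before it) both fall in 5 prime untranslated sequence of longer GENCODE 29 transcripts. The GDF15 match (chr19:18386186-18386205, plus strand) runs from base 29 to base 48 after the start and reaches coding sequence. Of the genes with a match, SESN1 and GDF15 rose, RPS27L did not pass the test and AEN had no read, so the matches did not go with one outcome. Well-known p53 sites of some targets, such as those of CDKN1A, lie outside windows of this kind. Sites inside a window are also missed when a core differs from the one asked for. A match here is a likeness of letters, not evidence of binding.

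All 4 arrest genes rose. CDKN1A, which encodes the cyclin-dependent kinase inhibitor p21, had 736, 868 and 745 CPM in si-SNHG17 and 481, 448 and 576 CPM in si-NC. The groups did not overlap, and the highest control was si-NC replicate 3. The rise was 1.56-fold (log2 fold change 0.64, standard error 0.0984, adjusted p = 0.000156 by edgeR). The gene lies on chromosome 6 from 36676460 to 36687339 (GENCODE 29), and 4.79% of its exon length is shared with an antisense gene. GADD45A, which binds PCNA and acts in the G2/M checkpoint, rose from 27.9 to 29.6 CPM in si-NC to 46.4 to 50.8 CPM in si-SNHG17 (log2 fold change 0.74).

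The polo-like kinases differed in size. PLK3, a stress-responsive kinase, had 39.3, 43.9 and 29.7 CPM in si-SNHG17 against 12.7, 13.8 and 14.4 CPM, and its log2 fold change of 1.47 (standard error 0.146, adjusted p = 3.44e-06 by edgeR) was the largest of the 30. Its si-SNHG17 libraries varied more, in percent of their mean, than those of any other member tested (19.3%, against a median of 6.84%), with replicate 3 the lowest. PLK2, which acts in centriole duplication and in stress checkpoints, was among the most abundant members and rose by only 0.29 on the log2 scale. That call was lost without si-SNHG17 replicate 3 (adjusted p = 0.056 by edgeR).

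Of the 5 feedback genes, 4 rose and none fell. MDM2 had 162, 148 and 172 CPM in si-SNHG17 and 88.8, 85.2 and 74.6 CPM in si-NC. Every knockdown library was therefore above every control, with a rise of 1.94-fold (log2 fold change 0.96, standard error 0.0916, adjusted p = 2.51e-06 by edgeR). MDM2 lies on chromosome 12 from 68808176 to 68850686, and 9.21% of its exon length is shared with other annotated genes. PPM1D, the phosphatase WIP1 that reverses damage kinase signals, had 26.1, 23.9 and 20.3 CPM against 13.96, 10.6 and 11.4 CPM (log2 fold change 0.97). CCNG1, a cyclin that directs protein phosphatase 2A to MDM2, had 144, 150 and 164 CPM against 81.6, 81.3 and 80.2 CPM, so its controls were nearly level (log2 fold change 0.92, standard error 0.0811).

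FBXO22, an F-box subunit of a ubiquitin ligase, rose by 0.28 on the log2 scale, from 65.7 to 66.9 CPM in si-NC to 77.8 to 81.9 CPM. This small rise missed the threshold when si-SNHG17 replicate 1 or 2 was left out (adjusted p = 0.0522 and 0.0532 by edgeR), and also when si-NC replicate 2 was (0.0504). MDM4, the partner of MDM2 that masks the p53 activation domain, had only 6 to 12 counts in each library. Its log2 fold change was 0.17 with a 95% interval of -0.72 to 1.06, which leaves room for a change of either sign.

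Of 4 DNA repair genes, RRM2B rose, POLH fell, and DDB2 and XPC did not pass. That is 25% in each direction, near the 19.6% over all genes tested. RRM2B, the p53-inducible subunit of ribonucleotide reductase that supplies nucleotides for repair, had 127, 131 and 144 CPM in si-SNHG17 and 77.9, 67.9 and 68.5 CPM in si-NC (log2 fold change 0.91, standard error 0.0893, adjusted p = 3.19e-06 by edgeR). POLH, the translesion polymerase that copies past ultraviolet damage, had 38.1, 36.8 and 34.5 CPM against 49.8, 48.9 and 40.2 CPM, with no overlap (log2 fold change -0.34). The fall of POLH was lost when si-SNHG17 replicate 2 or 3 was left out (adjusted p = 0.0543 and 0.0858 by edgeR) and when si-NC replicate 1 or 2 was (0.0914 and 0.0891).

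The damage sensors of nucleotide excision repair stayed close to their control levels. DDB2 had 174, 183 and 182 CPM against 159, 156 and 162 CPM, groups that did not overlap, with a log2 fold change of 0.18 (adjusted p = 0.0677 by edgeR). It passed when libraries were scaled by totals only (0.0276) and without si-NC replicate 3 (0.0338). XPC was at -0.01 with a 95% interval of -0.21 to 0.19, which excludes a change as large as that of RRM2B, and 30.4% of its exon length is shared with opposite-strand genes.

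Of 6 metabolic targets tested, 5 rose and none fell. The sestrins are stress proteins that restrain mTORC1 and support antioxidant defence. SESN1 had 33.9, 37.8 and 38.2 CPM in si-SNHG17 against 14.2, 13.97 and 15.3 CPM in si-NC, a 2.53-fold rise in which the groups lay far apart (log2 fold change 1.34, standard error 0.113, adjusted p = 7.78e-07 by edgeR). SESN2, which also responds to amino acid and endoplasmic reticulum stress through ATF4, had 37.8, 39.8 and 37.8 CPM against 20.7, 19.965 and 21.7 CPM (log2 fold change 0.89, 95% interval 0.67 to 1.11). SESN3, better known as a FOXO target, was rare, with 22, 28 and 26 counts against 11, 14 and 16. Its log2 fold change of 0.84 passed narrowly (adjusted p = 0.0409 by edgeR). That call was lost with DESeq2 (0.126), with no low-count filter (0.0726), with a replicate block (0.0595) and without any of the 6 libraries (0.0587 to 0.127). The differences between the 3 sestrins were not tested.

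FDXR, the mitochondrial ferredoxin reductase, had 305, 328 and 286 CPM in si-SNHG17 and 142, 149 and 174 CPM in si-NC, close to a doubling with no overlap (log2 fold change 0.98, standard error 0.09). TP53I3, a quinone oxidoreductase linked to oxidative death, had 89.1, 90.3 and 84.2 CPM against 46.0, 50.5 and 47.3 CPM (log2 fold change 0.87). ACER2, a Golgi ceramidase, overlapped between groups at 9.80 to 12.5 CPM and 9.43 to 14.99 CPM (log2 fold change -0.16, 95% interval -0.56 to 0.23). TIGAR, a fructose bisphosphatase that lowers glycolytic flux, had 3 to 10 counts per library and was not tested, and 45.6% of its exon length is shared with other genes.

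**Figure D2:**
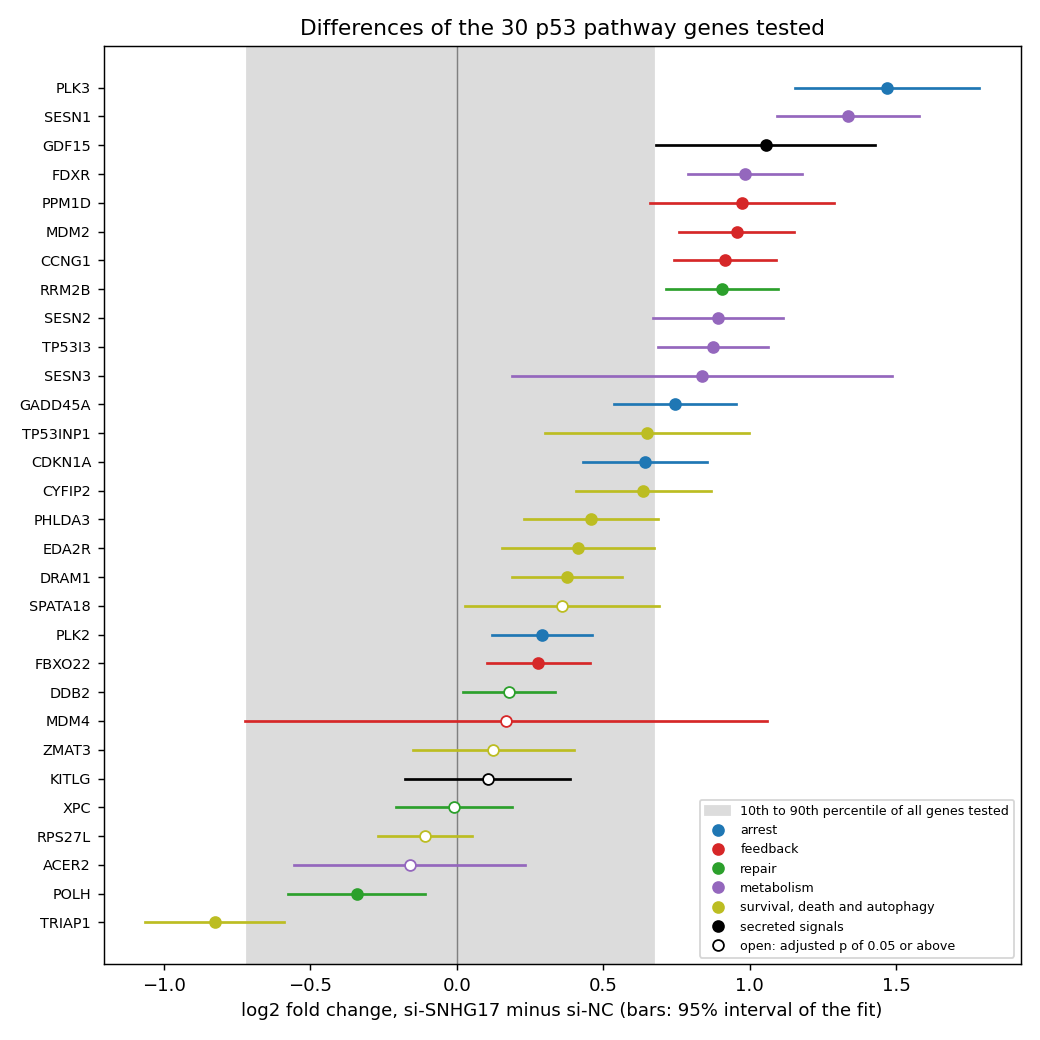
Log2 fold change (si-SNHG17 minus si-NC) of the 30 p53 pathway genes tested, with the 95% interval of the fit and coloured by role; open points did not pass an adjusted p of 0.05. PLK3 and SESN1 lie highest at 1.47 and 1.34, TRIAP1 lowest at -0.83, and the grey band holds the 10th to 90th percentile of all genes tested (-0.72 to 0.67).

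Of 9 targets tested in survival, death and autophagy, 5 rose, 1 fell and 3 did not pass. TP53INP1, which promotes p53 phosphorylation and autophagy, had 37.4, 26.5 and 33.9 CPM in si-SNHG17 and 24.0, 22.4 and 15.9 CPM in si-NC. The spread was wide in both groups, yet they did not overlap (log2 fold change 0.65, standard error 0.162, adjusted p = 0.00582 by edgeR). CYFIP2, a subunit of the WAVE actin regulator, had 158, 153 and 154 CPM against 107, 112 and 80.4 CPM (log2 fold change 0.64), with si-NC replicate 3 the lowest. PHLDA3, a repressor of AKT, rose by 0.46, and its si-NC replicate 3 at 121 CPM lay nearest to the knockdown libraries, which began at 131 CPM.

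DRAM1, a lysosomal membrane protein of autophagy, rose by 0.38 on the log2 scale. EDA2R, a receptor of the tumour necrosis factor family, rose by 0.41, a call that was lost without si-SNHG17 replicate 1 (adjusted p = 0.0782 by edgeR). SPATA18, which takes part in mitochondrial quality control, was higher in each knockdown library (10.0 to 11.9 against 8.31 to 8.63 CPM) but did not pass (log2 fold change 0.36, adjusted p = 0.0793 by edgeR). ZMAT3, a p53-induced RNA-binding zinc finger protein, had a log2 fold change of 0.12 with a 95% interval of -0.15 to 0.40.

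TRIAP1 went the other way from most of the pathway. This small mitochondrial protein supports cardiolipin supply and survival after damage, and it had 32.8, 40.6 and 36.0 CPM in si-SNHG17 against 58.2, 64.7 and 71.1 CPM in si-NC. The groups were well separated, and 56.3% of the control mean was left (log2 fold change -0.83, standard error 0.11, adjusted p = 4.79e-05 by edgeR). The fall held without each library, from -0.91 to -0.75. RPS27L, a ribosomal protein paralog that stabilises p53 through MDM2, had 185, 204 and 192 CPM against 205, 211 and 210 CPM. Those groups just failed to overlap, and the difference did not pass (log2 fold change -0.11, 95% interval -0.27 to 0.05). AEN, an exonuclease of apoptotic cells, was listed at 0 in all 6 libraries.

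The secreted targets differed from each other. GDF15, a stress cytokine that acts on the brainstem receptor GFRAL and is also induced through ATF4, had 194, 219 and 178 CPM in si-SNHG17 and 77.9, 73.1 and 133 CPM in si-NC. It was about doubled (log2 fold change 1.06, standard error 0.174, adjusted p = 0.000293 by edgeR), and the size of the rise moved with si-NC replicate 3, without which it was 1.39. KITLG, the ligand of the KIT receptor, overlapped between groups at 29.3 to 38.5 CPM and 29.04 to 37.2 CPM (log2 fold change 0.11, 95% interval -0.18 to 0.39).

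Levels of different genes were compared as RPKM, reads per kilobase of GENCODE 29 exon and per 1000000 counts, a scale that understates genes with long, rarely used exons. CDKN1A led in si-NC at 164 ± 21.8 (SD, n = 3), followed by PLK2 at 52.9 ± 3.40, GDF15 at 45.4 ± 16.0, TRIAP1 at 44.9 ± 4.45 and FDXR at 43.1 ± 4.58, and from PLK2 to FDXR each gene's libraries overlapped with those of the next. CDKN1A also led in si-SNHG17 at 257 ± 24.1, where GDF15 came next at 94.4 ± 10.0 and FDXR at 85.2 ± 5.89. MDM2 at 6.24 ± 0.554 and SESN2 at 6.01 ± 0.248 overlapped in the middle of the si-NC order. At the bottom, SESN3, TIGAR and MDM4 lay between 0.0880 and 0.130. In 17 of 31 neighbouring pairs the si-NC libraries overlapped. CENPF, a large gene of dividing cells named after its values were seen, also had a near-empty row, with 0.467 to 1.08 CPM, while TOP2A, another gene of dividing cells, had 583 to 830 CPM. The rows of AEN, TIGAR and MDM4 are therefore given as deposited counts and not as the absence of the transcript.

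**Figure D3:**
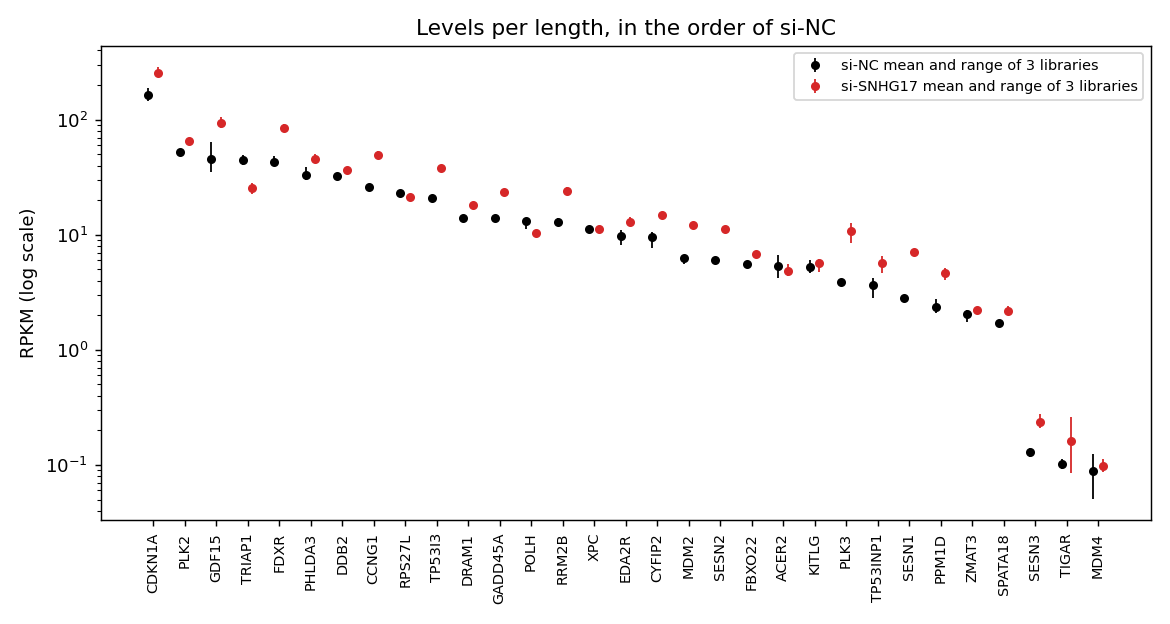
RPKM (log scale) of the p53 pathway genes with any read, in the order of si-NC; points are means and bars the range of 3 libraries. CDKN1A is highest in both groups, and SESN3, TIGAR and MDM4 lie far below the others.

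Among 27 tested genes whose products activate, modify or bind p53, 4 rose, 6 fell and 17 did not pass, with a median log2 fold change of -0.02. These were 14.8% higher and 22.2% lower, near the 19.6% in each direction over all genes tested. No p53 protein was measured. MDC1, a chromatin mediator of damage signals, fell by 1.74 on the log2 scale. HDAC1, a histone deacetylase that also acts on p53, fell from 153 ± 9.01 to 73.5 ± 4.81 CPM (log2 fold change -1.06, SD, n = 3). HIPK2, a kinase that phosphorylates p53 for apoptosis, fell by 1.23, and in si-NC replicate 3 it was at 65.9 CPM against 109 and 110 CPM in the other controls. PPP1R13L, which encodes the p53 inhibitor iASPP, rose by 0.62. CDKN2A, whose ARF product restrains MDM2 and whose locus is deleted in A549, had no read in any library, which allows up to 0.239 to 0.341 CPM (3 counts, counting error only). With scaling by totals only, 7 of the 27 rose.

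Direct p53 targets outside the 32 also rose more often than they fell. This list was drawn from general knowledge of p53 targets with earlier results of these data known, and BTG2 among it had already been seen to rise. Of 59 tested, 36 rose (61.0%), 2 fell (3.39%) and 21 did not pass, with a median log2 fold change of 0.51. Over all genes tested, 19.6% passed in each direction. BTG2, an antiproliferative partner of the deadenylase complex, had 203, 219 and 203 CPM in si-SNHG17 and 44.7, 43.5 and 49.8 CPM in si-NC (log2 fold change 2.18, standard error 0.0868). The death genes BBC3 (PUMA, log2 fold change 1.21), PMAIP1 (NOXA, 0.97), BAX (0.65) and the TRAIL receptor TNFRSF10B (0.35) rose. FAS, at 0.934 to 1.75 CPM, did not pass (0.69, 95% interval -0.04 to 1.42). Of the other genes named by their small p, the growth factor CSF1 rose by 0.90, the AP-1 subunit FOSL1 by 1.08 and the decapping cofactor DCP1B by 1.13.

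**Figure D4:**
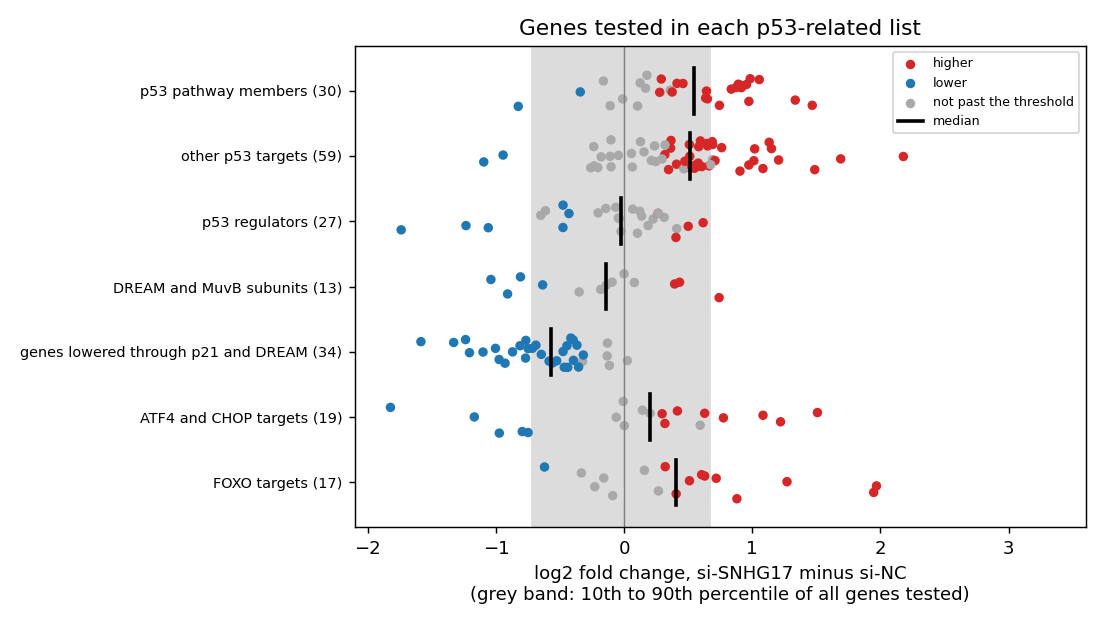
Log2 fold change (si-SNHG17 minus si-NC) of the genes tested in each p53-related list, with the number tested in parentheses, the median as a bar and the 10th to 90th percentile of all genes tested in grey. The medians are 0.55 for the p53 pathway genes, 0.51 for other p53 targets and -0.57 for genes lowered through p21 and DREAM.

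Genes known to fall through p21 and DREAM were lower. Of 34 tested, 29 fell (85.3%, against 19.6% of all genes tested), none rose and 5 did not pass (median -0.57). MCM6, a subunit of the replicative helicase, went from 155 ± 6.37 to 65.9 ± 0.910 CPM (SD, n = 3), a log2 fold change of -1.24. The mitotic kinesin KIF20A (-1.10), the survivin gene BIRC5 (-1.33) and the mitotic kinase PBK (-1.21) fell as well. Of 13 tested subunits of DREAM and the related MuvB complexes, 3 rose (23.1%) and 4 fell (30.8%), against 19.6% in each direction over all genes tested. The activating partners FOXM1 (-1.04) and MYBL2 (-0.81), the E2F partner TFDP1 (-0.91) and the repressive RBL1 (-0.64) fell. The repressive E2F5 (0.74) and RBL2 (0.43) rose, as did LIN37 (0.39). RBL2 and LIN37 passed only narrowly (adjusted p = 0.0464 and 0.0468 by edgeR). Repressive subunits past the threshold thus went both ways. With DESeq2, on mRNA rows only, or without si-SNHG17 replicate 1, si-SNHG17 replicate 3 or si-NC replicate 2, 1 of the 13 rose.

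Several p53 pathway genes are also known targets of other stress factors, so lists of those were counted beside them. Over all genes tested 19.6% passed in each direction, and 66.7% of the p53 pathway genes tested rose. Of 19 ATF4 and CHOP targets tested, 8 rose (42.1%) and 5 fell (26.3%), with a median of 0.20. Without si-SNHG17 replicate 3 or without si-NC replicate 2, 5 rose. The amino acid genes PSAT1 (-1.82) and SLC7A5 (-1.17) fell, while STC2 (1.08) and the eIF2 phosphatase subunit PPP1R15A (1.22) rose. Of 17 FOXO targets, 10 rose (58.8%) and 1 fell (5.88%), with a median of 0.41, and 3 fell without si-NC replicate 3. SOD2 (1.95), TXNIP (1.97), IRS2 (0.61) and KLF6 (0.63) rose, and SOD2 is as well known as an NF-kB target. Which factor acted on any of the 32 genes was not tested.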

How the data were processed

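Total RNA from Trizol extraction was made into single-end Ion Total RNA-Seq libraries for an Ion Proton sequencer, per the labels' protocols. The deposited values are raw whole-number counts of reads for each gene. The submitters' processing notes name GRCh38. The sources used here do not give the aligner, counting tool, annotation or use of strand. No sample column was left unused.

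The 6 libraries were compared in R 4.3.3 with edgeR 4.0.16 (filterByExpr, TMM, glmQLFit and glmQLFTest, group as the only term) over 15614 genes, with Benjamini-Hochberg adjustment over all of them and a threshold of 0.05. CPM values use TMM-scaled library sizes. The standard error is the log2 fold change divided by the root of F. Members and lists were chosen with earlier results of these data known. Named genes were SNHG17, the 32 members, 7 p53-related genes fixed by name (CDKN2A, BTG2, BAX, BBC3, PMAIP1, FAS and TNFRSF10B) and the 4 of smallest p in each pathway list; 1 further gene fixed by name is not reported here or counted in its list. CENPF, TOP2A, the keratins and the named epithelial, immune and stromal markers were added for checks. RBL1, RBL2 and LIN37 were added as the other DREAM and MuvB subunits past the threshold. Pairs of libraries from the same group differed by 2.25 to 8.85 chi-square units per degree of freedom, so none was treated as a duplicate. The highest values, 8.85 and 8.4, were those of si-NC replicate 3 against si-NC replicates 1 and 2. The si-SNHG17 pairs differed by 3.04 to 4.87. In counts simulated for si-SNHG17 against si-NC (200 changed genes among 15368), 48.8%, 71.2% and 96.6% of genes changed 1.5-fold, 2-fold and 4-fold were recovered, and 12.1% of calls were unchanged genes, above the aim. In the real comparison 39.2% of genes passed, a far larger share than was changed in the simulation. These rates therefore need not hold for it. Alternatives were 3 other scalings, DESeq2 1.42.0, limma-voom (limma 3.58.1), other filters, a replicate block, and each library left out. Promoters were searched in Python 3.11.15.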

Additional observations from a re-analysis of the deposited data

How the results depend on the processing

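All alternatives were planned. Of 480 values of the 30 members tested over 16 alternatives, 455 kept their direction and side of the threshold, 18 lost the threshold, 2 gained it and 5 changed sign. The sign changes were all in members that did not pass: over the fits with a library left out, MDM4 ran from -0.1226 (si-NC replicate 3) to 0.4704, XPC from -0.06271 to 0.03766 (si-NC replicate 1) and ACER2 from -0.3149 to 0.01987 (si-NC replicate 1). XPC was also 0.02681 with library totals only and 0.003341 with no low-count filter. The causes were not tested. Leaving out each library gave 1 to 2 falls among the members, with 1 fall when POLH was lost. The other named genes, without those added to them, kept all 479 values. SNHG17 was lower under each alternative that kept its row, that is, all but the one on mRNA rows only. The genes past the threshold numbered 4909 when si-NC replicate 2 was left out and 6600 when si-NC replicate 3 was, the extremes over the alternatives. Scaling by library totals only made 55.5% of all calls higher. Members counted as past the threshold ran from 19 to 23. The replicate block gave 5580 genes in all and 21 members, losing SESN3 and no other member's call. The deviations of same-numbered libraries from their group means correlated at 0.07, -0.13 and -0.11, and 0 of 6 libraries correlated best with its own number, so the numbers were not taken to pair the libraries. With 2 mismatches allowed the promoter search kept 1 gene, AEN, and with a spacer of up to 13 bases it found 5, when 5.53% of all genes in the table had a match. Counts of 0 to 12 per library limit AEN, TIGAR and MDM4.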
